A study of Arabidopsis thaliana with 11 samples.

Results

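The interaction of the xpo4-2 and cpr5 mutations was measured as the departure of the double mutant from what the 2 single mutants predict when their effects are added on the log2 scale. For each gene it equals the log2 effect of xpo4-2 in the cpr5 background minus its log2 effect in wild type. All 11 libraries of the series entered, and 21580 of 22160 genes in the deposited count table were tested. A gene whose double-mutant level lies above the additive expectation has a positive interaction and is called higher than additive, and a gene below it has a negative interaction and is called lower than additive.

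Whole Arabidopsis thaliana seedlings (wild type: Col-0) were grown for 10 days on diluted Murashige and Skoog medium with sucrose and received no treatment. There were 3 libraries each of wild type, the cpr5 single mutant and the xpo4-2 cpr5 double mutant, and 2 of the xpo4-2 single mutant. The labels name no allele for cpr5, and the design text speaks of triplicates, of which 2 xpo4-2 libraries were analysed here. Nothing in the labels says that replicates came from separate sowings, so p-values reflect only how much these libraries vary, and that variation could be technical.

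CPR5 is a membrane protein of the nuclear pore complex, and plants that lack it show constitutive salicylic acid (SA) defence, small size and abnormal trichomes. XPO4 encodes exportin-4, a receptor that carries proteins between nucleus and cytoplasm. SA defence is switched on through EDS1 and PAD4 and through the transcription factors SARD1 and CBP60g, which activate ICS1, the enzyme that starts the main SA pathway, and strong defence is commonly accompanied by lower transcript levels of photosynthesis genes.

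Totals were 16922732 to 23088104 counts per library, and levels are given in CPM, that is, counts scaled to a common library size. XPO4 stood at 19.6, 21.3 and 23.5 CPM in wild type, at 22.9, 18.3 and 27.7 in cpr5, at 1 and 4.8 with xpo4-2 alone and at 2.09, 0 and 2.27 with both mutations. The labelled xpo4-2 libraries were thus the low ones, and the interaction of XPO4 itself was -1.08 (SE 1.12, adjusted p = 0.612). CPR5 transcript was present in all libraries, at 8.08 to 24.6 CPM, and does not check the cpr5 labels. Wild type was the most spread group across genes, with correlations of log2 CPM between its libraries of 0.898 to 0.94, against 0.964 to 0.974 in cpr5.

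Non-additivity was common and ran in both directions. Of the 21580 genes, 691 were higher than additive (3.2%) and 1189 lower (5.51%), together 8.71%, by edgeR's quasi-likelihood test at a Benjamini-Hochberg adjusted p under 0.05. The median interaction was 1.56 on the log2 scale among genes called higher and -1.35 among genes called lower, against -0.008 over all genes. Single libraries moved these counts: without xpo4-2 replicate 1 there were 211 higher and 416 lower, and without wild type replicate 1 1122 higher. Without cpr5 replicate 1, 2 or 3 there were 402, 272 or 339 higher and 766, 621 or 695 lower, and without xpo4-2 replicate 2 or double-mutant replicate 1 400 or 406 higher. The split between directions depended on scaling: without scaling between libraries the median over all genes moved to 0.251, and 1354 genes were called higher and 784 lower. The scaling factors were 1.134 to 1.178 for libraries with both mutations and 0.907 to 0.986 for the rest.

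The genotype in which each departure arose was assigned by a rule: the genotype whose removal left the other 3 group means closest, provided that their range was under 0.5 of the interaction. By this rule it was the double mutant in 756 of the 1189 genes called lower (63.6%) and in 281 of the 691 called higher (40.7%). Over all genes tested that share was 18.4%. The xpo4-2 single mutant stood apart in 155 genes called higher and 87 called lower, wild type in 44 and 53, and cpr5 in 22 and 64. For xpo4-2 these are 22.4% and 7.32% of the calls, against 9.27% of all genes. Wild type (6.37% and 4.46%, against 6.71%) and cpr5 (3.18% and 5.38%, against 4.79%) were near or below their share of all genes. The remaining 189 and 229 were mixed. The double mutant's 3 libraries lay below all 8 other libraries in 935 of the genes called lower (78.6%) and above all of them in 448 of those called higher (64.8%). Over all genes tested these shares were 14.1% and 14.4%. When single libraries were left out, the calls and interaction sizes were refitted, but the group means stayed those of all 11 libraries. Under that limit the 756 became 304 without xpo4-2 replicate 1 and 452 without cpr5 replicate 2. The 281 became 67 and 146 without xpo4-2 replicate 1 and 2, 164, 110 and 145 without cpr5 replicate 1, 2 and 3, 179 without double-mutant replicate 1 and 434 without wild type replicate 1. The assignment and the call use the same libraries, so these shares describe the calls and are not tested.

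**Figure D1:**
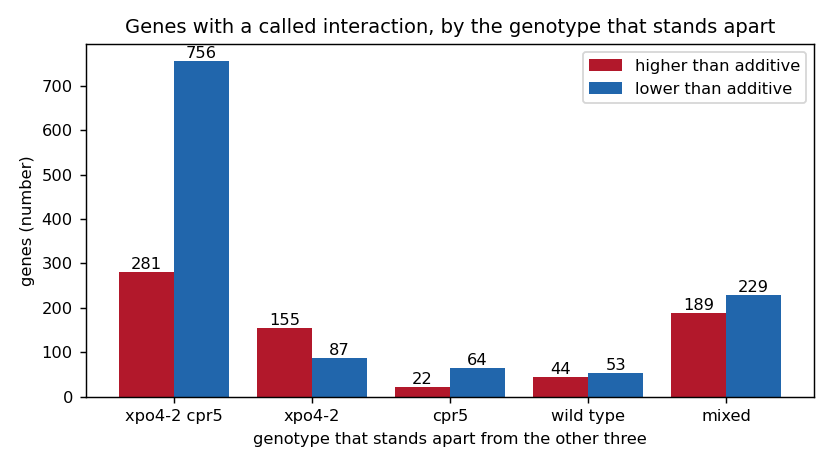
Number of genes with a called interaction, by the genotype that stands apart from the other three, for genes higher (red) and lower (blue) than additive. The double mutant holds 756 of the lower genes and 281 of the higher ones, and xpo4-2 alone holds 155 of the higher genes.

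The effect of xpo4-2 was measured independently in the 2 backgrounds, since wild type and xpo4-2 share no library with cpr5 and the double mutant. In wild type 586 genes changed (2.72%; 0.755% higher and 1.96% lower) and in cpr5 4682 (21.7%; 8.82% higher and 12.9% lower), and 315 changed in both, which is 53.8% of the first list and 6.73% of the second. Of these 315, 258 moved in the same direction and 57 in opposite directions. All 57 also had a called interaction, which is close to given, because the interaction is the difference of these effects. In 37 of the 57 xpo4-2 lowered the gene in wild type and raised it in cpr5, and in 20 it did the reverse. Across genes, which are not independent replicates, the log2 effects of xpo4-2 in the 2 backgrounds had a Spearman correlation of 0.15. For the effects of cpr5, measured in wild type and in xpo4-2, it was 0.42. cpr5 changed 6.64% of genes in wild type (4.3% higher and 2.34% lower) and 28.7% in xpo4-2 (13.2% higher and 15.5% lower), and 954 genes changed in both, 898 of them in the same direction.

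**Figure D2:**
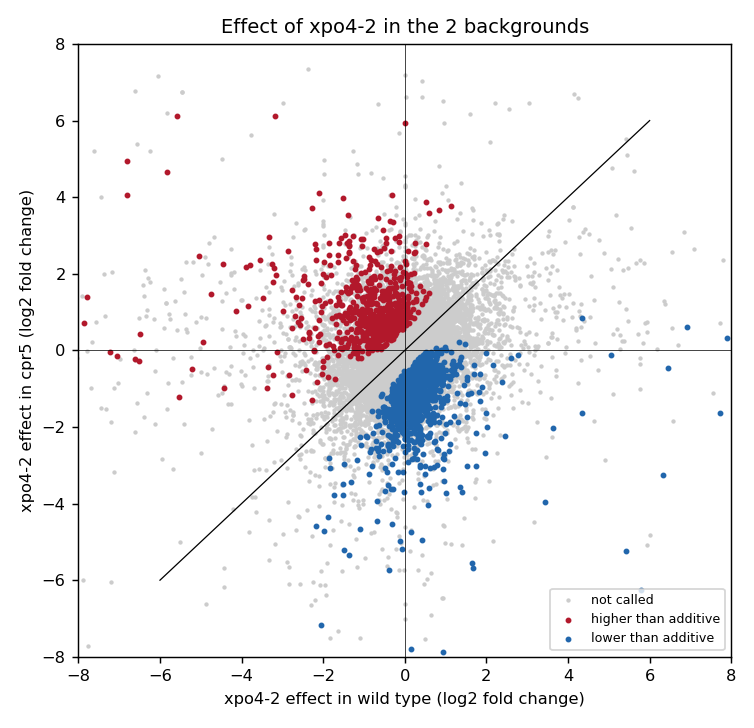
Log2 effect of xpo4-2 in wild type (x axis) against its log2 effect in cpr5 (y axis), 1 point per gene; the diagonal marks equal effects, that is, additivity. Genes called higher than additive (red) lie above the diagonal and genes called lower (blue) below it, and 56 genes beyond the axes are not drawn.

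Some SA synthesis genes rose above the additive expectation. Of 15 genes for SA synthesis and its activators, 5 were called higher (33.3%, against 3.2% of all genes), with a median interaction of 1.019 over the list against -0.008 over all genes. Median log2 effects of xpo4-2 on the list were -0.094 in wild type and 0.999 in cpr5. ICS1 (isochorismate synthase 1, AT1G74710) stood at 14, 21.1 and 34.4 CPM in wild-type libraries, 17.6 and 24.1 with xpo4-2 alone, 57.7, 43.2 and 42.8 with cpr5 alone and 420, 309 and 401 with both mutations. Wild type and xpo4-2 overlapped, cpr5 lay above both, and the double mutant lay far above cpr5. Additivity predicts 43.2 CPM for the double mutant, and the observed mean was 377 ± 59.3 CPM (SD, n = 3), an interaction of 3.13 (SE 0.442, adjusted p = 0.00361).

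EDS5, which exports the SA precursor from the plastid, stood at 44.7, 79 and 82.7 CPM in wild-type libraries, 26.4 and 46.6 with xpo4-2 alone, 81.5, 60.6 and 61.3 with cpr5 alone and 140, 120 and 146 with both mutations. Its log2 fold changes against wild type were -0.91 in xpo4-2 and -0.02 in cpr5 and did not pass (adjusted p = 0.13 and 0.976), and its interaction was 1.91 (SE 0.395, adjusted p = 0.0161). PBS3, which conjugates isochorismate to glutamate, averaged 6.15 CPM in wild-type libraries, 7.41 with xpo4-2 alone, 48.9 with cpr5 alone and 342 with both mutations, an interaction of 2.54 (adjusted p = 0.0163). Without xpo4-2 replicate 1 neither EDS5 nor PBS3 passed, nor did PBS3 without xpo4-2 replicate 2 (adjusted p up to 0.0764 and 0.0747). DMR6, which breaks SA down, had an interaction of 1.44 (adjusted p = 0.0296), which no longer passed when any 1 of 7 libraries was left out (largest adjusted p 0.126). EDS1 and PAD4, which act upstream of SA synthesis, had interactions of 0.22 and 0.88 that did not pass (adjusted p = 0.597 and 0.208). CBP60G passed narrowly at 1.08 (adjusted p = 0.0499, lost without any of 10 of the 11 libraries) and SARD1 did not (1.02, adjusted p = 0.053). EDS1, PAD4, CBP60G and SARD1 were chosen for mention after their values were seen. The count of 5 became 1 without xpo4-2 replicate 1 and 8 without wild type replicate 1. It became 3 without wild type replicate 2 or 3, xpo4-2 replicate 2, cpr5 replicate 2 or 3, or double-mutant replicate 1 or 3.

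The 250 bases before the annotated start of the 3 genes of this list with the lowest interaction p are shown because ICS1, EDS5 and PBS3 were raised together in the double mutant. They read along the strand of each gene, 5′ to 3′, from the TAIR10.1 reference (ICS1 at chr1:28070045-28070294 on the plus strand, EDS5 at chr4:18185187-18185436 on the plus strand, PBS3 at chr5:4267206-4267455 on the plus strand). Capitals mark TTGAC, the core of the W box that WRKY factors bind, and TGACG, the core bound by TGA factors, on either strand.
ICS1: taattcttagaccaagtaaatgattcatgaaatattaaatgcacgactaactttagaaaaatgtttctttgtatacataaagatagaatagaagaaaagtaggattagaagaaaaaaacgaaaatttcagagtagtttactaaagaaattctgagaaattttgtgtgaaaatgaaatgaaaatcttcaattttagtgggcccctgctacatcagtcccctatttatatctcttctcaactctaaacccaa
EDS5: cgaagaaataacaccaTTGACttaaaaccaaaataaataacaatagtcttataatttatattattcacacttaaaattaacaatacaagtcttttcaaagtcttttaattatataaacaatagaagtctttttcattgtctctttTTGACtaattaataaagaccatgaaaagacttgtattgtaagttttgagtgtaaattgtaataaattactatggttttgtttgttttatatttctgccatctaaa
PBS3: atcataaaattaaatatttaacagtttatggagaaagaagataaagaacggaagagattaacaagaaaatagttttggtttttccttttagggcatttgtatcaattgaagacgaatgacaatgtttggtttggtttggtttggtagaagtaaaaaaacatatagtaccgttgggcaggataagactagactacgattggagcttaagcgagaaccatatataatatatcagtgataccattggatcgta
TTGAC occurs at 2 places in the EDS5 window, and these letters are not in the windows of ICS1 and PBS3. Over all genes, TTGAC was in 51.0% of 690 windows of genes called higher, 41.1% of 1188 windows of genes called lower and 45.3% of 21458 windows of all genes tested. TGACG was in 23.8%, 20.5% and 19.1%, and the pair can overlap where TTGACG occurs. These shares are descriptions of letters and were not tested.

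Of 23 genes of SA perception and response, 4 fell with xpo4-2 in wild type (1.96% of all genes did). In cpr5, 10 rose with xpo4-2 and 1 fell (8.82% and 12.9% of all genes did). For the interaction 4 were called higher than additive (17.4%, against 3.2% of all genes), with a median interaction of 0.897, and 22 of the 23 values were positive. WRKY54, a defence transcription factor, stood at 7.29, 17.6 and 15.2 CPM in wild-type libraries, 3.5 and 2.75 with xpo4-2 alone, 42.2, 29.8 and 29.2 with cpr5 alone and 81.8, 68.7 and 103 with both mutations. The 4 groups did not overlap. The log2 effect of xpo4-2 on WRKY54 was -2.1 in wild type (adjusted p = 0.0204) and 1.33 in cpr5 (adjusted p = 0.00916), and the interaction was 3.42 (SE 0.472, adjusted p = 0.00337).

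NIMIN2, a partner of the SA receptor NPR1, stood at 25.8, 26.8 and 16.7 CPM in wild-type libraries, 11.3 and 8.53 with xpo4-2 alone, 57.2, 41.5 and 31.1 with cpr5 alone and 94.7, 87.4 and 77 with both mutations. Its log2 effect of xpo4-2 was -1.22 in wild type (adjusted p = 0.0494) and 1 in cpr5 (adjusted p = 0.0141), with an interaction of 2.22 (adjusted p = 0.00658). WRKY70, which represses and activates parts of the SA response, averaged 81.5, 61.5, 187 and 488 CPM in wild type, xpo4-2, cpr5 and double mutant, an interaction of 1.79 (adjusted p = 0.025) that was lost without any of 6 libraries (adjusted p up to 0.112). PR1, the standard marker of SA defence, named here after its values were seen, stood at 3.68 to 42.6 CPM in wild-type libraries, 7.34 and 27.6 with xpo4-2 alone, 407 to 787 with cpr5 alone and 1630 to 2220 with both mutations. Its interaction was 2.25 with an SE of 1.03 and did not pass (adjusted p = 0.217). NPR1 and NPR3, SA receptors also named after their values were seen, had interactions of 0.04 and 0 (adjusted p = 0.91 and 1). The count of 4 for this list was 2 without xpo4-2 replicate 1, without cpr5 replicate 2 or 3, or without double-mutant replicate 1, and 8 by DESeq2.

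Beyond SA, other defence regulators also exceeded additivity. FMO1, the enzyme that makes the mobile immune signal N-hydroxypipecolic acid, stood at 1.69 to 4.81 CPM in wild-type libraries, 2.56 and 8.44 with xpo4-2 alone, 14.4, 13 and 16.7 with cpr5 alone and 207, 149 and 172 with both mutations. All double-mutant libraries lay above all cpr5 libraries, the interaction was 2.98 (SE 0.621), and it passed (adjusted p = 0.0166, and 0.0502 without xpo4-2 replicate 1). The other 2 tested members of that pathway had positive values that did not pass. Of 65 WRKY transcription factors, many of them defence regulators, 9 were higher (13.8%, against 3.2% of all genes), 1 was lower, and 56 values were positive, with a median of 0.545. This list overlaps that of the SA response: WRKY54 is in both, and WRKY70 is also a WRKY factor. The 2 counts are therefore not separate. WRKY58 fell with xpo4-2 in wild type and rose with it in cpr5 (log2 effects -2.19 and 1.28, adjusted p = 0.0149 and 0.0085). WRKY50 and WRKY60 had interactions of 3.89 and 2.15 (adjusted p = 0.00277 and 0.00468). TTG2, the 1 WRKY called lower, is a regulator of trichomes and seed coat rather than of defence (-2.44, adjusted p = 0.0463, lost in 5 of 9 alternatives and without any of 10 of the 11 libraries).

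Receptors of the cell surface followed in part. Of 40 cysteine-rich receptor-like kinases 7 were higher (17.5%) and 1 lower (2.5%), against 3.2% and 5.51% of all genes, with a median of 0.791. CRK36 stood at 3.31 to 3.79 CPM in wild-type libraries, 1.61 and 1.2 with xpo4-2 alone, 5.64 to 13.7 with cpr5 alone and 53 to 87.2 with both mutations, an interaction of 4.21 (SE 0.492, adjusted p = 0.00209). CRK18 was lowest in xpo4-2, at 24 and 24.6 CPM, and highest in the double mutant, at 62.4 to 74.3, with wild type and cpr5 overlapping between them (interaction 1.71, adjusted p = 0.00235). CRK42 was the member called lower (-1.13, adjusted p = 0.00689, not passing on TPM values). WAK1, a kinase bound to the cell wall, averaged 211, 113, 461 and 954 CPM in wild type, xpo4-2, cpr5 and double mutant (1.95, adjusted p = 0.0124, and 0.0706 without xpo4-2 replicate 1). Among 24 genes of pattern-triggered immunity 2 were higher and 2 lower (8.33% each, against 3.2% and 5.51% of all genes): FLS2, the receptor for bacterial flagellin, rose above additivity (2.21, adjusted p = 0.0216, up to 0.0855 and not passing without xpo4-2 replicate 2 or cpr5 replicate 1 or 2), while MPK3, a defence MAP kinase, fell below it (-1.07, adjusted p = 0.0118, and 0.0645 without xpo4-2 replicate 1). MPK3 rose in cpr5 against wild type (0.77, adjusted p = 0.0101) and was lowered by xpo4-2 in cpr5 (-0.48, adjusted p = 0.0302). RPS2, an immune receptor that senses bacterial effectors, was higher (1.78, adjusted p = 0.0146), 1 of 2 called among 20 NLR receptors (10%, against 3.2%), whose median interaction was -0.134.

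Most photosynthesis genes tested lay below additivity, with low levels in the double mutant. Of 20 light-harvesting antenna genes 17 were called lower, of 22 nuclear photosystem subunits 20, of 15 genes of Rubisco and the Calvin cycle 14, and of 13 genes of chlorophyll synthesis 8, against 5.51% of all genes. The uncalled members all had negative values. Median interactions were -2.797, -2.104, -1.775 and -1.268. The median log2 effect of xpo4-2 on the antenna list was 0.393 in wild type and -2.422 in cpr5, and that of cpr5 was 0.11 in wild type and -2.68 in xpo4-2.

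LHCB3, a chlorophyll-binding protein of the photosystem II antenna, stood at 2330, 2010 and 1240 CPM in wild-type libraries, 2840 and 2390 with xpo4-2 alone, 2530, 2400 and 2260 with cpr5 alone and 289, 337 and 144 with both mutations. cpr5 overlapped both wild type and xpo4-2, and the double mutant lay below all of them. Its interaction was -3.72 (SE 0.451, adjusted p = 0.00216). LHCB6 averaged 2240, 3380 and 2500 CPM in wild type, xpo4-2 and cpr5 and 543 ± 159 in the double mutant (-2.8, adjusted p = 0.00216), and LHCB4.1 3040, 4380, 3300 and 1120 (-2.09, adjusted p = 0.00216). LHB1B1, of the nearly identical LHCB1 copies, among which reads may have been divided, had an interaction of -4.61 (adjusted p = 0.00227). The summed level of the 20 antenna genes was 29440 to 56080 CPM in wild-type libraries, 51990 and 67460 with xpo4-2 alone, 47570 to 51770 with cpr5 alone and 7409 to 12380 with both mutations.

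The windows before the start of the 3 antenna genes with the lowest interaction p are shown because these genes fell together in the double mutant (LHCB4.1 at chr5:208616-208865 on the plus strand, LHCB3 at chr5:22037915-22038164 on the plus strand, LHCB6 at chr1:5447881-5448130 on the minus strand, TAIR10.1). Capitals mark CACGTG, the G box, and GATAAG, the I box, motifs common in light-regulated promoters, on either strand.
LHCB4.1: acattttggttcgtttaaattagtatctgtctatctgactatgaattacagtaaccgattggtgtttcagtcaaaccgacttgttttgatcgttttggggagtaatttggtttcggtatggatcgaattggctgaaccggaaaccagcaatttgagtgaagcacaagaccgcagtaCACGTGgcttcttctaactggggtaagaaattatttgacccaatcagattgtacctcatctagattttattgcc
LHCB3: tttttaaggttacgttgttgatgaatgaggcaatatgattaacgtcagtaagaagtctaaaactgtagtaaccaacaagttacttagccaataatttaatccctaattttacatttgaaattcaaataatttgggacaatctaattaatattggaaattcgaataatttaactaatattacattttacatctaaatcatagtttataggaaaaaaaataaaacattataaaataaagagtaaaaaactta
LHCB6: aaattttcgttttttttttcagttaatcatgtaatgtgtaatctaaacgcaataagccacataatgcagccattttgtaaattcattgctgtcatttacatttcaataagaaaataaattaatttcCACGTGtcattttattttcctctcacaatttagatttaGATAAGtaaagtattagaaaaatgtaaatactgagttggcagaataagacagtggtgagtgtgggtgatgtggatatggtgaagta
CACGTG occurs in the windows of LHCB4.1 and LHCB6, and GATAAG in that of LHCB6. CACGTG was in 5 of 20 antenna windows, in 9.34% of windows of genes called lower, 6.09% of those called higher and 7.15% of all. GATAAG was in 4 of 20 antenna windows, in 15.6% of windows of genes called lower, 90 of 690 of those called higher and 12.4% of all. A further motif, GAAATTT, was in 11.7% of windows of genes called lower, 14.3% of those called higher and 12.5% of all.

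PSBQA, a subunit of the oxygen-evolving complex, stood at 1090, 1130 and 973 CPM in wild-type libraries, 1640 and 1540 with xpo4-2 alone, 1140, 1200 and 1100 with cpr5 alone and 373, 402 and 296 with both mutations (interaction -2.27, SE 0.202, adjusted p = 0.000711). xpo4-2 was the highest group and the double mutant the lowest, without overlap. PSAH-1 of photosystem I (-2.03), RBCS3B, a small subunit of Rubisco with near-identical copies (-2.38), HCEF1, a plastid fructose bisphosphatase (-2.07), and GUN5, a subunit of the magnesium chelatase of chlorophyll synthesis (-2.36), were also called lower, with adjusted p between 0.00133 and 0.00594. The count of 8 for chlorophyll synthesis became 4 without xpo4-2 replicate 1 or cpr5 replicate 2. Of 319 ribosomal proteins, taken by description, 34 were called lower (10.7%, against 5.51% of all genes) and 2 higher (0.627%, against 3.2%), with a median of -0.42. PRPL11, of the plastid ribosome, had the lowest p among them, at 222, 283, 213 and 99.1 CPM in wild type, xpo4-2, cpr5 and double mutant (-1.46, adjusted p = 0.0028).

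**Figure D3:**
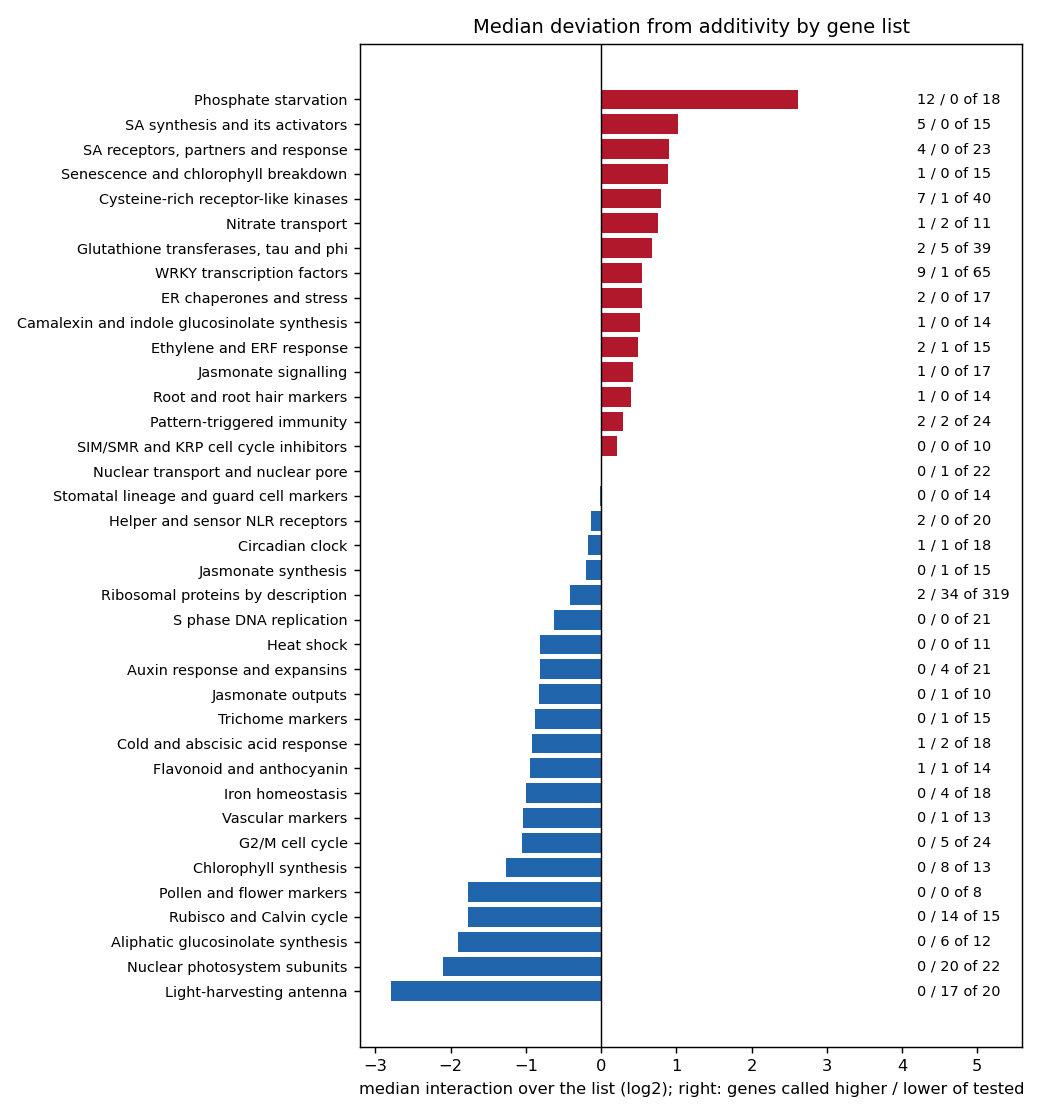
Median interaction (log2) over each gene list with 8 or more tested genes, with the number called higher and lower of those tested at the right. The light-harvesting antenna has the most negative median (-2.797, 17 of 20 lower) and phosphate starvation the most positive (2.617, 12 of 18 higher); the vertical line is the median of all genes.

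Seedlings are mixtures of cell types, and in these bulk samples fewer cells of a type and less RNA per cell cannot be told apart. Root and root-hair markers moved beside the photosynthesis genes: their summed level was 34.9 to 65.1 CPM in wild-type libraries, 63.05 and 107.9 with xpo4-2 alone, 61.3 to 74.4 with cpr5 alone and 145 to 209 with both mutations, and 8 of 14 had all double-mutant libraries above all others, against 14.4% of all genes. PRP3, a root-hair wall protein named after its values were seen, averaged 5.57, 16.6, 10.4 and 50.6 CPM in wild type, xpo4-2, cpr5 and double mutant. PHT1;9, a phosphate transporter on the list, was the marker called higher than additive (7.14% of the list, against 3.2% of all genes). Its call did not pass without any of 9 libraries, and the median interaction of the list was 0.395. Summed stomatal markers lay between 88.5 and 113 CPM over all libraries. Of 15 trichome markers 14 had negative interactions and 1, TTG2, was called lower (6.67%, near the 5.51% of all genes). MYB106, a trichome regulator, averaged 3.78, 3.28, 4.42 and 0.775 CPM in wild type, xpo4-2, cpr5 and double mutant (-2.3, adjusted p = 0.103). The summed trichome level was not lowered against wild type, at 80.16 to 82.25 CPM with both mutations and 69.98 to 82.04 in wild-type libraries. It was 80.57 and 87.22 with xpo4-2 alone and 100.5 to 103.7 with cpr5 alone. In 4 of the 15 markers all double-mutant libraries lay below all others, against 14.1% of all genes. Vascular markers had 1 of 13 called lower, IRX1, a cellulose synthase of the secondary wall (-1.9, adjusted p = 0.0304). That share of 7.69% is near the 5.51% of all genes, and the call was lost in 4 of 9 alternatives and without any of 6 libraries (adjusted p up to 0.114). The part of these shifts in the interactions was not tested.

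Genes for aliphatic glucosinolates, sulphur-containing defence compounds made from methionine, also fell in the double mutant. Of 12 genes 6 were called lower (50%, against 5.51% of all genes), with the double mutant apart in all 6 (18.4% of all genes) and a median of -1.897. CYP79F1, which commits the elongated amino acid to the pathway, stood at 101, 99.7 and 76.2 CPM in wild-type libraries, 96.5 and 113 with xpo4-2 alone, 75.7, 94.4 and 93.1 with cpr5 alone and 14, 15.3 and 7.71 with both mutations. Wild type overlapped both single mutants, the double mutant lay below all of them, and the interaction was -3.02 (SE 0.338, adjusted p = 0.00197). MAM1 and BCAT4, of the chain-elongation steps, had interactions of -2.22 and -2.32, and CYP83A1, which acts after CYP79F1, of -2.18 (adjusted p = 0.00197, 0.00202 and 0.0027). GSTU20 and GSTU13, glutathione transferases linked to glucosinolate synthesis, fell likewise (-2.79 and -1.52, adjusted p = 0.00284 and 0.0015). Among 39 tau and phi glutathione transferases 5 were lower (12.8%) and 2 higher (5.13%), against 5.51% and 3.2% of all genes. MYB51, an activator of the indole branch, went the other way (0.97, adjusted p = 0.0359, not passing without any of 9 libraries). It was the 1 gene called of 14 for camalexin and indole glucosinolates (7.14%, against 3.2% of all genes). In that list 11 interactions were positive and 3 negative. With xpo4-2 in cpr5, 2 of the 14 rose and 4 fell (8.82% and 12.9% of all genes did).

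**Figure D4:**
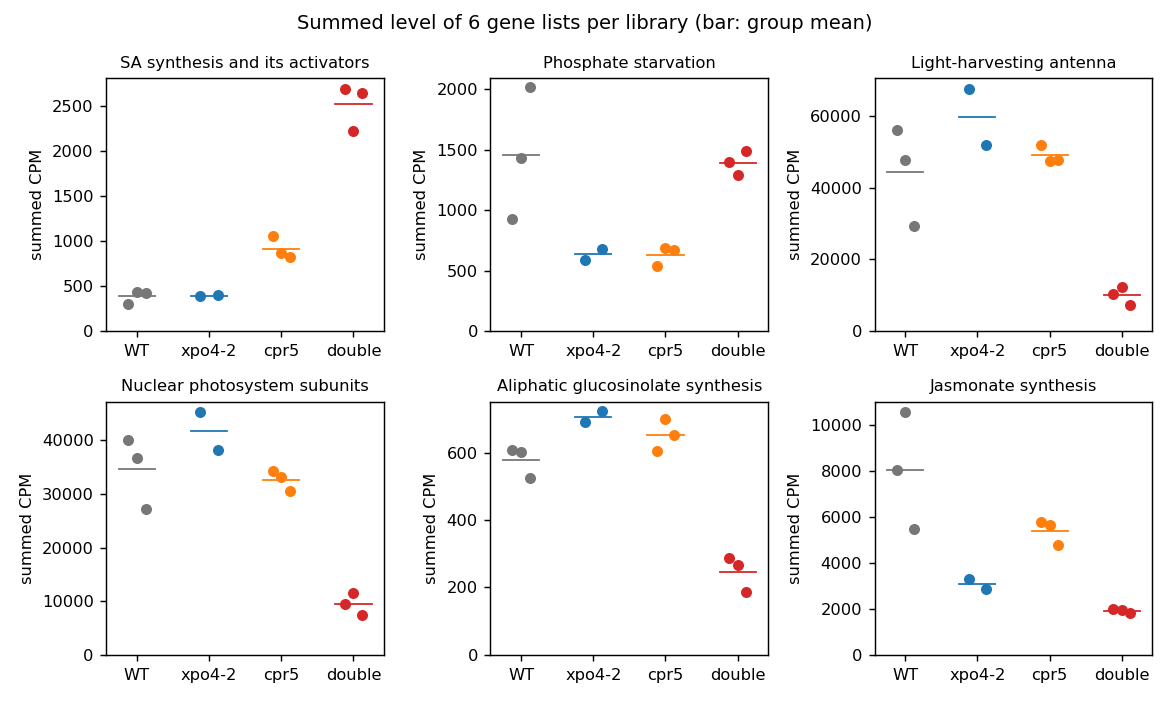
Summed CPM of 6 gene lists per library in the 4 genotypes, with bars at group means. The double mutant is lowest for antenna, photosystem and aliphatic glucosinolate genes and highest for SA synthesis, whereas phosphate starvation genes are low in both single mutants and jasmonate synthesis genes are lowest in the double mutant and next lowest in xpo4-2.

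Some jasmonate genes were lowered by xpo4-2 in both backgrounds, and few passed the interaction test. Of 15 genes of jasmonate synthesis 5 fell with xpo4-2 in wild type and 10 in cpr5 (1.96% and 12.9% of all genes did). The median log2 effects of xpo4-2 on the list were -1.238 in wild type and -1.639 in cpr5. The median interaction was -0.196, with 1 gene called lower (6.67%, near the 5.51% of all genes). That gene, AOS, the entry enzyme of the pathway, averaged 1100, 395, 585 and 75.3 CPM in wild type, xpo4-2, cpr5 and double mutant. Its interaction of -1.47 (adjusted p = 0.0455) was lost in 6 of 9 alternatives and without any of 9 libraries (adjusted p up to 0.184). On the linear scale the double mutant lay 200 CPM above, not below, the sum of the single effects, which was a negative level (-124 CPM). Values that did not pass do not show additivity: the SE of the AOS interaction was 0.399 on the log2 scale.

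VSP2, a storage protein that marks the jasmonate response, was the 1 output gene of 10 called, in the lower direction (10%, against 5.51% of all genes). It stood at 383, 303 and 164 CPM in wild-type libraries, 69.8 and 56.1 with xpo4-2 alone, 240, 251 and 205 with cpr5 alone and 7.97 to 10.7 with both mutations. Wild type and cpr5 overlapped, xpo4-2 lay below both, and the double mutant lay lowest. xpo4-2 had log2 effects of -2.17 in wild type and -4.6 in cpr5 (adjusted p = 0.00989 and 4.06e-05), and the interaction was -2.43 (SE 0.389, adjusted p = 0.00564). Added in CPM, the single effects predict 11.8 CPM, close to the observed mean of 9.59 ± 1.43 (SD, n = 3). VSP2 has a near-identical partner, VSP1 (-1.1, adjusted p = 0.0637). CYP82G1, which makes a volatile defence terpenoid, had -2.62 and did not pass (adjusted p = 0.0525). MYC3, a transcription factor of the pathway, went opposite: 68.4, 42 and 64.1 CPM in wild-type libraries, 23.3 and 16.4 with xpo4-2 alone, 48.1, 62.4 and 39.6 with cpr5 alone and 87.4, 109 and 77.4 with both mutations. It fell with xpo4-2 in wild type (-1.55, adjusted p = 0.0204), rose with it in cpr5 (0.87, adjusted p = 0.0242), and had an interaction of 2.42 (adjusted p = 0.00445). MYC3 was the 1 gene called of 17 for jasmonate signalling (5.88%, against 3.2% of all genes). In that list 14 interactions were positive and 3 negative, with a median of 0.427.

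Plants raise phosphate starvation genes when phosphate is scarce. Of 18 such genes, 2 fell with xpo4-2 and 6 with cpr5 in wild type (1.96% and 2.34% of all genes did). In cpr5, 10 rose with xpo4-2 (8.82% of all genes did). For the interaction 12 were called higher than additive (3.2% of all genes were), with a median interaction of 2.617. Median log2 effects were -0.914 for xpo4-2 and -1.098 for cpr5 in wild type, and 1.343 for xpo4-2 in cpr5. IPS1, a non-coding RNA of the phosphate response, stood at 34, 72.4 and 125 CPM in wild-type libraries, 4.5 and 2.53 with xpo4-2 alone, 1.49, 4.92 and 3.62 with cpr5 alone and 20.6, 20.4 and 7.02 with both mutations. The single mutants overlapped each other, and the double mutant lay between them and wild type. The interaction of IPS1 was 6.72 (SE 0.942, adjusted p = 0.00355).

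AT4, a relative of IPS1, averaged 434 ± 141 CPM in wild-type libraries, 63.9 ± 10 with xpo4-2 alone, 48.5 ± 20.3 with cpr5 alone and 145 ± 35.7 with both mutations (interaction 4.34, adjusted p = 0.00235). xpo4-2 lowered it in wild type (-2.76, adjusted p = 0.0125) and raised it in cpr5 (1.58, adjusted p = 0.00936). PS3, described as a glycerol-3-phosphate transporter, stood at 47, 92.7 and 87.3 CPM in wild-type libraries, 25.8 and 41.3 with xpo4-2 alone, 30, 39.9 and 32.9 with cpr5 alone and 82.8, 80.1 and 114 with both mutations. The double mutant overlapped wild type and exceeded both single mutants (2.6, adjusted p = 0.00557). MGD2, which makes galactolipids in place of phospholipids, had an interaction of 2.29 (adjusted p = 0.00825). Wild type stood apart in 5 of the 12 called genes and the double mutant in 5. The regulators PHR1 and PHO2, named after their values were seen, had interactions of 0.13 and 0.16 that did not pass (adjusted p = 0.725 and 0.885). The count of 12 fell to 4 without either xpo4-2 library and to 6, 7 or 6 without cpr5 replicate 1, 2 or 3.

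NRT1.7, a nitrate transporter that loads nitrate into the phloem of old leaves, had the smallest interaction p of the genes described. It stood at 180, 261 and 233 CPM in wild-type libraries, 1.45 and 2.49 with xpo4-2 alone, 11.3, 10.9 and 10.9 with cpr5 alone and 211, 109 and 233 with both mutations. The double mutant overlapped wild type, and both single mutants lay far below. xpo4-2 lowered NRT1.7 in wild type (log2 effect -6.81, adjusted p = 0.00018) and raised it in cpr5 (4.06, adjusted p = 6.02e-05). Its interaction of 10.87 (SE 0.526, adjusted p = 1.41e-05) lay between 10.32 and 11.33 under all alternatives and with any library left out. NRT1.7 (AT1G69870, chromosome 1, start 26315787 in TAIR10.1) neighbours TH8, a thioredoxin gene starting at 26321398, which stood at 0 to 2 CPM in the 8 other libraries and at 19.1, 13.7 and 17 in the double mutant (interaction 9.3, adjusted p = 0.00254). Of 11 nitrate transport genes 1 was higher and 2 lower (9.09% and 18.2%, against 3.2% and 5.51% of all genes). NRT1.5, which loads the xylem, averaged 9.04, 55, 34.4 and 29.9 CPM, so that wild type was the low group (-2.81, adjusted p = 0.00856).

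**Figure D5:**
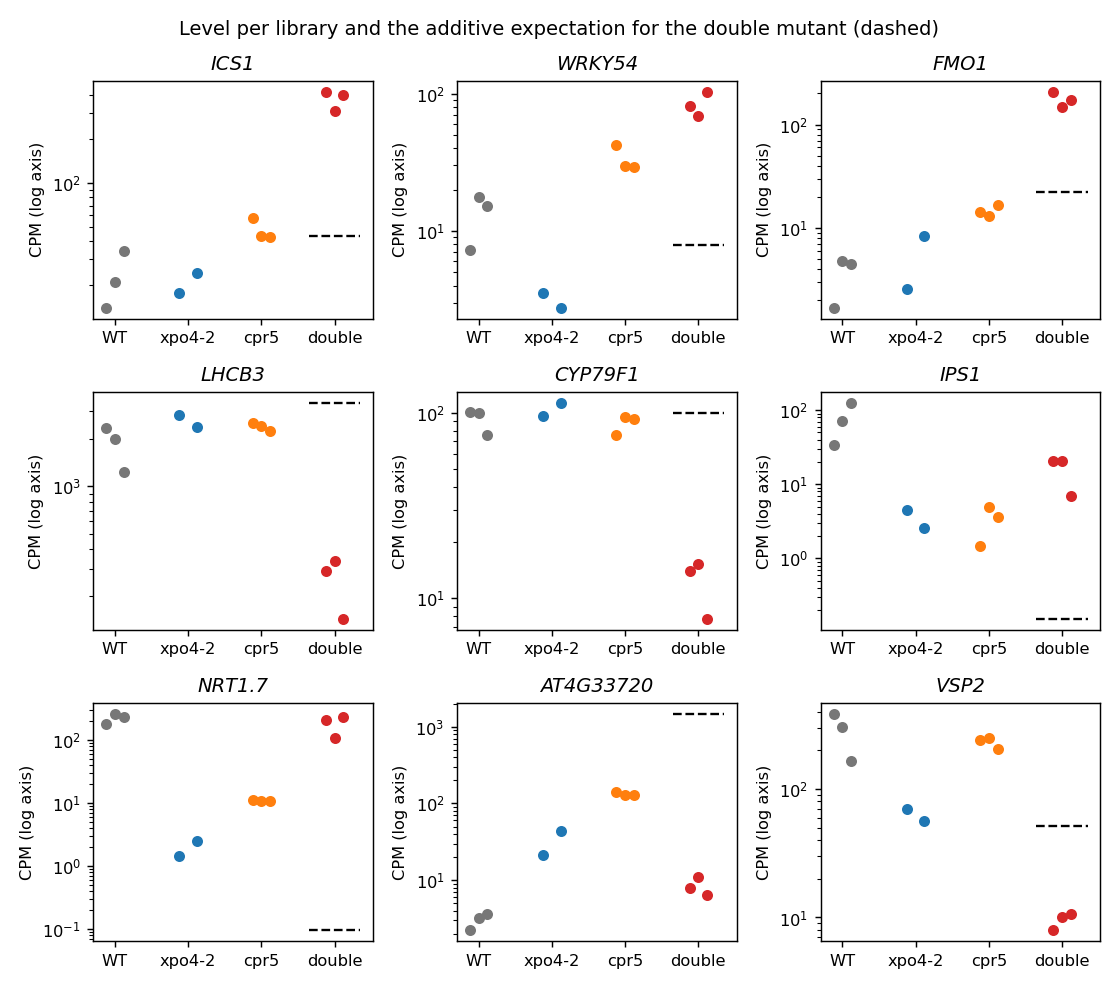
Level of 9 genes in each library (points, CPM on log axes) by genotype, with a dashed line at the level that additivity on the log2 scale predicts for the double mutant. ICS1, WRKY54, FMO1, IPS1 and NRT1.7 lie above the line and LHCB3, CYP79F1, AT4G33720 and VSP2 below it.

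Iron uptake regulators were lowest in wild type. BHLH39, a transcription factor of iron deficiency, stood at 0.181, 0.0601 and 0.105 CPM in wild-type libraries, 2.5 and 2.4 with xpo4-2 alone, 0.88 to 2.13 with cpr5 alone and 1.58 to 3.69 with both mutations, an interaction of -3.5 (adjusted p = 0.0245). It rose with either single mutation (4.34 and 3.68, adjusted p = 0.0113 and 0.00772) and had a log2 effect of 0.84 for xpo4-2 in cpr5 (adjusted p = 0.258), but rests on few counts and did not pass without any of 5 libraries. Of 18 iron genes 4 were called lower (22.2%, against 5.51% of all genes), with wild type apart in 3.

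In a smaller set of genes the cpr5 single mutant stood apart, and the double mutant lay closer to wild type. AT4G33720, of the family of secreted CAP proteins that holds PR1, stood at 2.23, 3.19 and 3.58 CPM in wild-type libraries, 21.4 and 44.1 with xpo4-2 alone, 142, 130 and 128 with cpr5 alone and 8.01, 11.1 and 6.49 with both mutations. Each single mutation raised it (3.45 and 5.47, adjusted p = 0.0011 and 3.49e-05), and xpo4-2 lowered it in cpr5 (-3.97, adjusted p = 6.02e-05). Its interaction was -7.41 (SE 0.437, adjusted p = 5.34e-05). PP2-B13, described as a phloem protein, averaged 6.87, 15.9, 48.1 and 14.7 CPM in wild type, xpo4-2, cpr5 and double mutant (-2.92, adjusted p = 0.000257). The cpr5 libraries were the high ones, and xpo4-2 and the double mutant overlapped.

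AT3G05170, annotated as a phosphoglycerate mutase family member, was low in the cpr5 libraries. It stood at 6.75, 10.7 and 8.95 CPM in wild-type libraries, 9.34 and 8.3 with xpo4-2 alone, 0.16, 0.259 and 0.121 with cpr5 alone and 11.4, 10.3 and 12.7 with both mutations (interaction 5.92, adjusted p = 0.000267). The gene starts at position 1466483 of chromosome 3, where XPO4 starts at 1200331 (TAIR10.1). AT5G12940, a leucine-rich repeat protein, was raised in cpr5 and xpo4-2 and near wild type in the double mutant (21.6, 39.9, 50.7 and 18.1 CPM in wild type, xpo4-2, cpr5 and double mutant, with -2.37, adjusted p = 0.000863). Genes with a called interaction made up between 8.39% of tested genes on chromosome 3 and 9.19% on chromosome 4.

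The xpo4-2 single mutant stood apart in AT1G80130, a tetratricopeptide repeat protein, which was at 15.3, 17.7 and 15.6 CPM in wild-type libraries, 3.06 and 3.15 with xpo4-2 alone, 7.2, 5.02 and 6.22 with cpr5 alone and 21.7, 19.6 and 20.5 with both mutations. The assignment is by the rule above. No 2 groups overlapped, cpr5 was next lowest after xpo4-2, and the double mutant was highest (4.12, SE 0.275, adjusted p = 0.000128). PES2, which makes fatty acid phytyl esters during chlorophyll breakdown, averaged 30.9, 13.9, 26.1 and 53.5 CPM in the same order of groups (2.18, adjusted p = 0.00197). AT2G39980, an acyltransferase of the HXXXD type, averaged 89.6, 27.7, 49 and 111 CPM in that order (2.88, adjusted p = 0.00197). Wild type stood apart in AT5G53420, a CCT-domain protein, at 106, 72.4 and 103 CPM in wild-type libraries, 20.6 and 20.2 with xpo4-2 alone, 32.1, 34.5 and 32.8 with cpr5 alone and 48.2, 54.5 and 46.9 with both mutations (2.79, adjusted p = 0.000415), and in AT5G22920, a zinc finger protein, at means of 212, 503, 422 and 275 CPM (-1.86, adjusted p = 0.00227). PAO, which opens the chlorophyll ring, was also higher than additive (0.89, adjusted p = 0.0218, not passing without any of 4 libraries).

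Some growth and hormone genes lay below additivity. Of 24 genes of the G2/M phase 5 were called lower (20.8%, against 5.51% of all genes) and 23 had negative values, with a median of -1.054. Their summed level was 162.9 to 200.4 CPM with both mutations, overlapping the 176.5 to 265.3 of wild-type libraries. It was 257.4 and 323.2 with xpo4-2 alone and 258.4 to 300.9 with cpr5 alone. Among 21 genes of S phase DNA replication 0 were called, and 20 had negative values, with a median of -0.63. KN, the syntaxin that builds the cell plate, stood at 20.9 to 27.1 CPM in wild-type libraries, 45.9 and 32.9 with xpo4-2 alone, 34 to 40.8 with cpr5 alone and 18.2 to 25.2 with both mutations (-1.49, SE 0.259, adjusted p = 0.00807). The double mutant overlapped wild type, and both single mutants lay above. CDKB2;1, a kinase of the cell cycle, had -1.12 (adjusted p = 0.0205), lost without scaling and on TPM values. Of 21 auxin-response and expansin genes 4 were lower (19%), among them IAA19, an auxin-response repressor (-1.91, adjusted p = 0.00658). ERF6, an ethylene-response factor, fell in the double mutant, at 97.4, 114, 146 and 27.7 CPM in wild type, xpo4-2, cpr5 and double mutant (-2.63, adjusted p = 0.00479). It was the 1 gene called lower of 15 for ethylene and ERF response (6.67%, near the 5.51% of all genes). Most of that list went the other way: 2 were called higher (13.3%, against 3.2%), and 11 values were positive, with a median of 0.493. IMPA-6, an importin alpha, was the 1 gene called of 22 for nuclear transport and the nuclear pore (-1.63, adjusted p = 0.0252, lost on TPM values and without any of 5 libraries; 4.55% of the list, against 5.51%).

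Of 17 genes for chaperones and stress of the endoplasmic reticulum, 2 were called higher (11.8%, against 3.2% of all genes) and 16 values were positive. PDIL1-2, a protein disulphide isomerase, stood at 40.8 to 64.7 CPM in wild-type libraries, 45.8 and 44.4 with xpo4-2 alone, 42.9 to 48.4 with cpr5 alone and 97.1 to 144 with both mutations (1.55, SE 0.281, adjusted p = 0.00941). ABI1, a phosphatase that restrains abscisic acid signalling, averaged 88.3, 60.1, 82.7 and 244 ± 7.53 CPM (2.11, SE 0.219, adjusted p = 0.0015). It was the 1 gene called higher of 18 for cold and abscisic acid response (5.56%, against 3.2% of all genes). Most of that list went the other way: 2 were called lower (11.1%, against 5.51%), and 14 values were negative, with a median of -0.923. LHY, a morning gene of the clock, stood at 1.45 to 3.74 CPM in wild-type libraries, 0.334 and 0.133 with xpo4-2 alone, 0.725 to 1.33 with cpr5 alone and 2.73 to 3.08 with both mutations (4.82, adjusted p = 0.00634). The hour of harvest was not known here, and 1 other of 18 clock genes was called, in the lower direction. Each direction held 5.56% of the clock list, against 3.2% higher and 5.51% lower among all genes.

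Additivity depends on the scale. Of 71 called genes described here, 67 had the same sign when the single effects were added in CPM instead of log2 CPM. For some of the 67 the linear expectation was negative, so any observed level exceeds it and their positive sign was given in advance. These included NRT1.7 (-211 CPM), AT4 (-322), IPS1 (-70.4), PS3 (-7.87), MGD2 (-8.31), LHY (-1.24) and TH8 (-1.02). The 4 genes whose sign differed were AOS, the cold-regulated genes COR15A and COR15B, and SESA1, a seed storage albumin. COR15A averaged 346, 94.3, 83.3 and 4.06 CPM in wild type, xpo4-2, cpr5 and double mutant, an interaction of -2.47 on the log2 scale (adjusted p = 0.0348, lost in 4 of 9 alternatives and without any of 8 libraries) but 172 CPM above it on the linear scale, where the expectation is negative. SESA1 averaged 51.9, 13.1, 7.99 and 0.291 CPM (-2.73, adjusted p = 0.0205, lost in 3 of 9 alternatives and without any of 2 libraries) and lay 31.1 CPM above the linear expectation. Of the 16 genes with the largest interactions in either direction, 6 had a genotype in which every library was at 0 counts, so their fitted values depend on the prior count and are not given.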

How the data were processed

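RNA-seq of 11 seedling libraries was used. The deposited count table holds raw counts per gene. A second deposited table, labelled kallisto, holds TPM that the authors computed per transcript, which were summed to genes here. The submitters' processing notes name HISAT2 2.0.4, HTSeq 0.6.1p1 and TAIR10. The strand setting and the treatment of reads with several matches are not given in the sources used here, so near-identical or overlapping genes are uncertain singly. The deposited TPM follow the counts and are no independent measurement.

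Counts were fitted in 1 model of xpo4-2, cpr5 and their product with edgeR 4.0.16 (R 4.3.3; TMM scaling; filterByExpr, which removed 580 of 22160 genes; quasi-likelihood test; Benjamini-Hochberg adjustment over 21580 genes). Totals of 16922732 to 23088104 counts and 11 libraries limit the precision, and the biological coefficient of variation was 0.305. Alternatives were DESeq2 1.42.0 size factors and Wald test, no scaling, other filters, limma 3.58.1 on log2(TPM + 0.5) and log2(TPM + 0.1), a replicate block, the linear scale, a stricter stands-apart limit and each library left out.

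Genes were named by rule: the 8 largest positive and 8 largest negative called interactions with at least 5 CPM in a group, the 4 lowest p in each list, XPO4 and CPR5, and the 4 lowest p for each other genotype that stood apart. The rule named 181 genes, of which 75 are described, and 10 more were chosen after their values were seen. The members and lists were chosen with earlier results of these data known. The scripts were tested on simulated data. Promoter windows were read from TAIR10.1, and the deposited files hold no coordinates.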

Additional observations from a re-analysis of the deposited data

Results flagged for a closer look

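The effect of xpo4-2 differed between the wild-type and cpr5 backgrounds, by the interaction test, in 691 genes in the higher and 1189 in the lower direction. Among the genes described, 16 changed with xpo4-2 in opposite directions in the 2 backgrounds, each past the test in both. Those with positive interactions were WRKY54 (3.42), NIMIN2 (2.22), CRK18 (1.71), WRKY58 (3.47), MYC3 (2.42), IPS1 (6.72), AT4 (4.34), NRT1.7 (10.87), AT1G80130 (4.12), PES2 (2.18), AT2G39980 (2.88) and AT5G53420 (2.79), on the log2 scale. Those with negative interactions were AT5G22920 (-1.86), AT4G33720 (-7.41), PP2-B13 (-2.92) and AT5G12940 (-2.37).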

How the results depend on the processing

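Of 71 called genes described, 49 passed under all 9 alternatives and with each of 11 libraries left out, and 22 did not in at least 1. The main counts were 691 higher and 1189 lower than additive, with the double mutant apart in 281 and 756. In the same order they were 1354, 784, 582 and 470 without scaling between libraries, 1532, 756, 591 and 430 by limma on log2(TPM + 0.5), 1365, 732, 567 and 450 on log2(TPM + 0.1), and 1338, 697, 512 and 390 on log2(TPM + 0.5) with no filter. The TPM fits also had no scaling between libraries beyond TPM itself. Their median interactions over all genes were 0.271, 0.273 and 0.215, against 0.251 for unscaled counts. The DESeq2 Wald test called 1350 higher, 533 of them with the double mutant apart. With the stands-apart limit at 0.25 of the interaction the double mutant stood apart in 90 and 272. The SA response list had 7 called without scaling and on log2(TPM + 0.1), and 8 by DESeq2 and on log2(TPM + 0.5). The cause of these shifts was not tested. Every stands-apart count in this section used the group means of the main fit, and only calls and interaction sizes were refitted. On the linear scale the observed level exceeded the expectation by 200 CPM for AOS, 172 for COR15A, 48.8 for COR15B and 31.1 for SESA1, so their direction turned. That expectation was negative for AOS, COR15A and COR15B (-124, -168 and -33.2 CPM), and no observed level can lie below it. Same-numbered libraries were not paired: 1 of 15 correlations of their deviations was over 0.1. With the replicate block there were 444 higher and 969 lower, 184 higher with the double mutant apart and 3 SA synthesis genes. Leaving out 1 library gave 211 to 1122 higher, 416 to 1614 lower, 67 to 434 and 304 to 999 with the double mutant apart, and called members of 5 to 7 for aliphatic glucosinolates, 4 to 11 for chlorophyll synthesis, 15 to 18 for antenna, 18 to 21 for photosystems, 4 to 14 for phosphate starvation, 11 to 15 for the Calvin cycle, 2 to 6 for SA response and 1 to 8 for SA synthesis. The uncalled XPO4 interaction turned from -1.08 to 0.46 without xpo4-2 replicate 2 and was -1.79 without replicate 1. With 1 library left out, uncalled interactions also changed sign: NPR1 ran from -0.02 to 0.12, NPR3 from -0.13 to 0.15, PHO2 from -0.17 to 0.59 (-0.06 with the block) and PRP3 from -0.07 to 1.73.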
